A study of Homo sapiens with 9 samples.

Results

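The 41 genes described here encode nuclear subunits of respiratory complexes II to V together with the electron carrier cytochrome c. They comprise 4 subunits of complex II, 9 of complex III, 12 of complex IV, 15 of complex V and the cytochrome c gene CYCS. Members were found by gene symbol: a gene entered where a probe set of the array carried its symbol and no other, and where it had several the one with the highest 9-array mean was used. This gave 38 of the 41 genes, among 19775 genes with such a probe set on the array. SDHB, UQCRFS1 and UQCRH are not analysed here, because no probe set carried one of these symbols alone in the annotation used. Of the 38 genes, 37 passed the filter on dim genes and were tested.

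RNA came from LiSa-2, a human liposarcoma cell line. Group 1 received bovine testicular hyaluronidase (HAase) at 400 µg/mL for 24 h, group 2 received the same dose for 6 h, and the control group received phosphate-buffered saline (PBS) for 24 h. Each group had 3 samples and each sample 1 Affymetrix Human Genome U133 Plus 2.0 array. HAase breaks down hyaluronan, a sugar polymer of the matrix around cells. There was no 6 h PBS group, so for the 6 h samples the agent and the time in culture cannot be told apart. The labels do not say that the 3 samples of a group came from separate cultures, so p-values reflect sample-to-sample spread that may be technical. The series title places the study in work on the extracellular matrix and glucose metabolism.

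The respiratory chain sits in the inner mitochondrial membrane and passes electrons from metabolic fuels to oxygen. Complex II takes electrons from succinate, complex III passes them from ubiquinol to cytochrome c, and complex IV hands them from cytochrome c to oxygen. Complexes III and IV pump protons on the way, and complex V, the ATP synthase, lets the protons flow back to make ATP; most of the subunits are encoded in the nucleus and a few in mitochondrial DNA. In fat cells this chain is known to increase as the cells differentiate.

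Values below are probe set signals in the linear units of the authors' deposited table, or differences on the log2(signal + 16) scale, which understates changes of dim genes. A gene is said to have risen or fallen where limma gave an adjusted p under 0.05, with Benjamini-Hochberg adjustment over 13842 genes. An array's control level is the brightest of its 27 probe sets for Bacillus subtilis spike-in transcripts, between 34.2 and 65.0 over the 9 arrays. Arrays of the same group correlated at 0.989 to 0.991 over all genes, and the highest correlation between groups was 0.974. As a check of the cell line, all 7 adipocyte markers tested were lower after 24 h of HAase than in PBS (median log2 difference -1.98). The liposarcoma amplicon genes MDM2 and CDK4 were above the control level on every array and did not pass the test. The third, HMGA2, was near the control level in PBS, with signals of 43.6, 49.2 and 60.3. Relative to PBS, HMGA2 rose by 4.64 on the log2 scale at 24 h and by 3.47 at 6 h. The summed signal of the adipocyte markers was 43576 to 49196 after 24 h, 69411 to 72542 after 6 h and 79006 to 84169 in PBS. Among markers of other cells, EPCAM, CDH1, KRT19, PTPRC, LYZ and CDH5 were not above the control level on any array. KRT8 was above it on every array, with signals of 129 to 207. KRT18, CD3E, CD14, VWF and KDR were above it on at least 1 array. The endothelial gene PECAM1 rose by 0.53 on the log2 scale at 24 h. The summed signal of the 4 endothelial markers was 415 to 433 after 24 h, 370.4 to 418 after 6 h and 272 to 334 in PBS. The ACTB 3′ minus 5′ signal difference, a measure of RNA integrity, was 1.38 to 1.62 after 24 h, 1.14 to 1.5 after 6 h and 1.56 to 1.70 in PBS (log2). The part of the adipocyte or endothelial markers, of HMGA2 or of RNA quality in the results below was not tested.

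After 24 h of HAase, subunit genes of complexes II, III, IV and V and cytochrome c were lower than in PBS. Of the 37 genes tested, 33 fell and 0 rose, against 22.8% of all genes tested that fell and 17.5% that rose. At an unadjusted p under 0.05 the count that was higher was also 0, and 34 were lower. The median log2 difference was -0.39, a 1.31-fold decrease, with a range of -0.82 to -0.11 over the 36 genes other than ATP5MF, which was at -0.047. Over all 13842 genes the median was -0.026. In these bulk samples, fewer cells of a type and less RNA per cell cannot be told apart. The falls were small in size: SDHD, UQCRC2, CYC1 and ATP5MC1 fell by 1.5-fold or more, as did 9.95% of all genes tested. The median was -0.37 for the 24 genes with a mean signal of 10000 or more. For the 12 genes with a mean signal of 1000 to 10000 it was -0.50. Whether the brightest probe sets understate a change was not tested. For the 33 genes that fell, every 24 h array lay below every PBS array, as was the case for 28.9% of all genes tested. UQCRQ, UQCR11, ATP5F1E and ATP5MF did not pass the test.

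The shift was present on each array. Taken as the median over the 37 genes of the log2 difference from the PBS mean, the 24 h arrays lay at -0.41, -0.37 and -0.39, and the PBS arrays at -0.040, -0.0043 and 0.042. The 6 h arrays lay at -0.12, -0.11 and -0.15, between the other groups and without overlap with either.

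**Figure D1:**
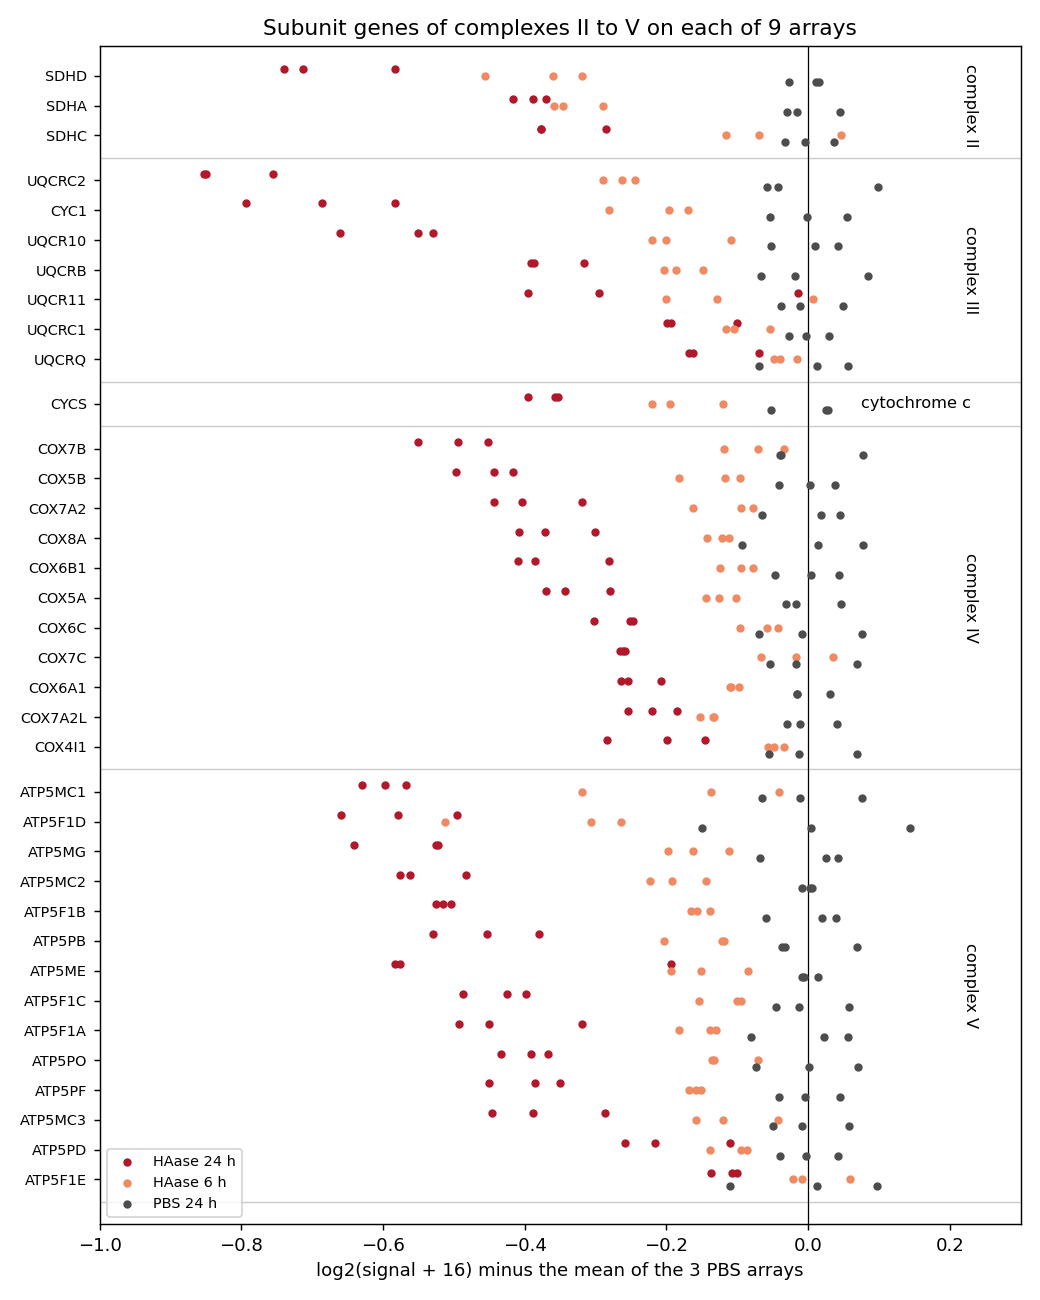
Log2 difference of each subunit gene from its PBS mean on every array of the HAase 24 h, HAase 6 h and PBS groups. Each point is a gene on an array. Over the genes tested, the 24 h arrays have medians of -0.41 to -0.37, the 6 h arrays -0.15 to -0.11 and the PBS arrays -0.040 to 0.042. ATP5MF, whose signal lies at the control level, is not drawn.

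Complex II oxidises succinate and is part of the citric acid cycle as well as of the respiratory chain. All 3 of its measured subunits fell at 24 h, with a median of -0.39. SDHD, a membrane anchor that binds ubiquinone, had the largest fall of the complex. Its signals were 2794, 2742 and 3058 in HAase 24 h cells, 3342, 3674 and 3573 in HAase 6 h cells, and 4504, 4639.8 and 4623 in PBS cells. The 3 groups did not overlap, with the 24 h arrays lowest. The log2 difference from PBS was -0.68 ± 0.06 at 24 h (SE, n = 3 per group, limma adjusted p = 6.84e-05) and -0.38 at 6 h (adjusted p = 0.00179). SDHA, the flavoprotein that holds the succinate site, averaged 3479 ± 55.1 in HAase 24 h cells, 3628 ± 94.3 in HAase 6 h cells and 4569.8 ± 129 in PBS cells (SD, n = 3 each). It fell at both times relative to PBS, and the 24 h and 6 h samples did not pass the test against each other. SDHC, the other membrane anchor, averaged 4900.3 ± 182 in HAase 24 h cells, 6039.5 ± 356 in HAase 6 h cells and 6231 ± 151 in PBS cells (SD, n = 3 each). It fell at 24 h relative to both other groups, and its 6 h arrays overlapped those of PBS.

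Complex III had the 2 largest falls of the 37 genes, beside 2 subunits that did not pass the test. UQCRC2, a core protein of the complex, had signals of 5268, 5257 and 5626 in HAase 24 h cells, 8019.5, 7777 and 7917 in HAase 6 h cells, and 9133, 9233 and 10184 in PBS cells. Every 24 h array lay below every 6 h array, and every 6 h array below every PBS array. The log2 difference from PBS was -0.82 ± 0.06 at 24 h, a 1.76-fold decrease (SE, n = 3 per group, limma adjusted p = 1.95e-05). CYC1, cytochrome c1, which passes electrons to cytochrome c, had signals of 5842, 6297 and 6760.5 in HAase 24 h cells, 8843, 8340.1 and 9011 in HAase 6 h cells, and 10131, 10531 and 9764 in PBS cells. It fell 1.61-fold at 24 h (adjusted p = 0.000113), again with no overlap between the 3 groups. UQCR10 fell by 0.58 on the log2 scale and UQCRB by 0.36; both encode small subunits of the complex. The second core protein, UQCRC1, fell by 0.16, with an adjusted p of 0.0317 that was not below 0.05 under 10 of the alternatives tried. UQCR11 had signals of 5923, 6352 and 7716 in HAase 24 h cells, 7127, 7829.7 and 6784 in HAase 6 h cells, and 8067, 7731 and 7589.9 in PBS cells. 1 of its 24 h arrays lay within the PBS range, and the adjusted p was 0.110. UQCRQ, another small subunit, differed by -0.13 with an adjusted p of 0.0882. The median over the 7 tested subunits was -0.36.

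Cytochrome c carries electrons from complex III to complex IV. CYCS had signals of 26290.2, 26206 and 25531 in HAase 24 h cells, 28818, 30877 and 29325 in HAase 6 h cells, and 32365, 34158 and 34217 in PBS cells. Every HAase 24 h array lay below every HAase 6 h array, and every HAase 6 h array below every PBS array. The log2 difference at 24 h was -0.37 ± 0.05 (SE, n = 3 per group, limma adjusted p = 0.000712).

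Complex IV is the cytochrome c oxidase, and its nuclear subunits surround a catalytic core encoded in mitochondrial DNA. All 11 of its tested subunits fell at 24 h, with a median of -0.33 and a range of -0.50 to -0.21. COX7B, a small subunit required for assembly, had the largest fall. Its signals were 19933, 20531 and 19172 in HAase 24 h cells, 26752, 27442 and 25871 in HAase 6 h cells, and 27338, 27365 and 29635 in PBS cells. The 24 h arrays lay apart from the rest, while 1 of the 6 h arrays was within the PBS range. The 24 h log2 difference was -0.50 ± 0.06, a 1.41-fold decrease (SE, n = 3 per group, limma adjusted p = 0.000231). COX5B fell by 0.45 and COX4I1 by 0.21; COX4I1 was the smallest fall of the complex and its adjusted p of 0.0194 was not below 0.05 under 5 of the alternatives tried. COX6A1 fell by 0.24 and did not pass when its probe sets were averaged.

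Both isoforms of subunit COX7A had a probe set. COX7A2, the widely expressed isoform, had signals of 15209, 15643 and 16580.2 in HAase 24 h cells, 19389, 19613 and 18494 in HAase 6 h cells, and 20969, 19784 and 21362 in PBS cells. It fell by 0.39 on the log2 scale at 24 h (limma adjusted p = 0.00101). COX7A1, the isoform of heart, muscle and brown fat, had signals of 3.24 to 14.3 over the 9 arrays, below the control level on each. It did not pass the filter on dim genes and was not tested. COX7A2L, a related protein that joins complexes III and IV in supercomplexes, fell by 0.22 at 24 h, with an adjusted p of 0.0583 under equal array medians.

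Complex V makes ATP with a catalytic F1 head, a ring of c subunits in the membrane and a peripheral stalk that holds both together. Of its 15 subunits, 13 fell at 24 h, and the median was -0.44. With the mean of probe sets the medians were -0.48 in complex V and -0.53 in complex III. The differences between complexes were not tested, since subunits are not replicates. In the F1 head, ATP5F1A (alpha), ATP5F1B (beta), ATP5F1C (gamma) and ATP5F1D (delta) fell by 0.42, 0.52, 0.44 and 0.58 on the log2 scale. ATP5F1E (epsilon) had signals of 23089, 22616 and 23203 in HAase 24 h cells, 24722, 25909 and 24502 in HAase 6 h cells, and 25072, 23035 and 26612 in PBS cells. Its 24 h arrays overlapped those of PBS and the adjusted p was 0.191. In the peripheral stalk, ATP5PB, ATP5PF and ATP5PO fell by 0.45, 0.40 and 0.40, and ATP5PD by 0.20 (adjusted p = 0.0242, not below 0.05 under 8 of the alternatives tried). Of the membrane subunits that help ATP synthases pair up, ATP5MG fell by 0.56 and ATP5ME by 0.45. ATP5MF was represented by a dim probe set with signals of 17.5 to 50.8, above the control level on 1 of 3 arrays in each group, and no fold is drawn for it.

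The c ring is encoded by ATP5MC1, ATP5MC2 and ATP5MC3, whose mature proteins are the same and whose import sequences differ. ATP5MC1 had signals of 3541, 3697 and 3623 in HAase 24 h cells, 5333, 4989.7 and 4394 in HAase 6 h cells, and 5443, 5783 and 5245 in PBS cells. It had the largest fall of complex V, at -0.60 ± 0.08 (SE, n = 3 per group, limma adjusted p = 0.000546). ATP5MC2 had signals of 7667, 8182 and 7744 in HAase 24 h cells, 10355, 9799 and 10010.5 in HAase 6 h cells, and 11480.1, 11375 and 11459.7 in PBS cells, and fell by 0.54 at 24 h; averaged with a second probe set, above the control level on 1 of 9 arrays, it gave 0.049. ATP5MC3 had signals of 20039, 21502 and 19253 in HAase 24 h cells, 23505, 25485 and 24133 in HAase 6 h cells, and 25364, 26083 and 27302 in PBS cells, and fell by 0.37 at 24 h. The 24 h arrays of all 3 isoform genes lay below every PBS array.

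**Figure D2:**
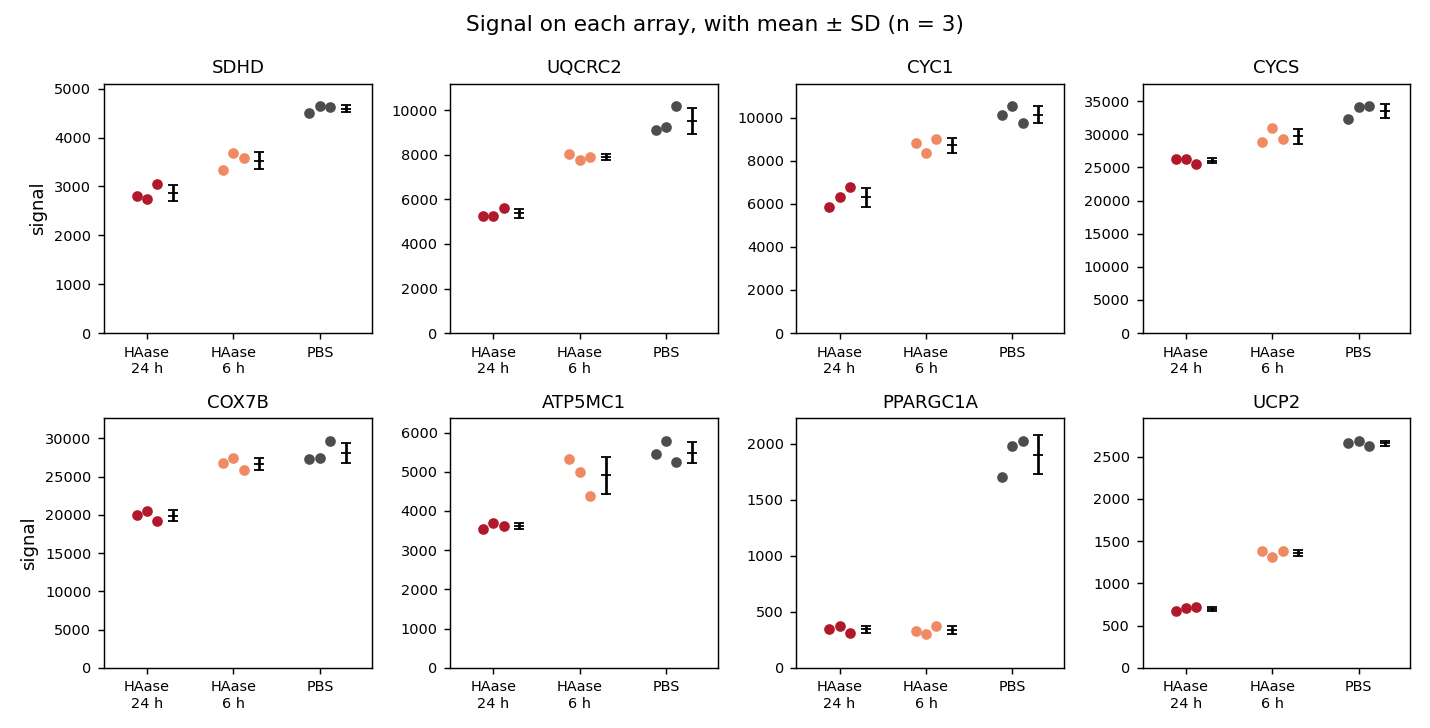
Signal on each array (linear, each panel from 0) for 6 subunit genes and for PPARGC1A and UCP2, with HAase 24 h at the left, then HAase 6 h and PBS; points are arrays and bars are means with SD (n = 3). For SDHD, UQCRC2, CYC1 and CYCS the 6 h arrays lie below the PBS arrays and the 24 h arrays below both. COX7B and ATP5MC1 overlap PBS at 6 h. Of the alternatives tried, 10 lost the 6 h call of CYC1, 6 that of CYCS, and 1 each those of SDHD and UQCRC2. There was no 6 h PBS group.

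At 6 h the same genes were nearer to PBS. Of the 37 tested, 12 (32.4%) fell and 0 rose, against 27.4% of all genes tested that fell and 15.0% that rose. The share that fell was thus near that of all genes. At an unadjusted p under 0.05 the count that was higher was 0 and 18 were lower. The median log2 difference was -0.13, over all genes it was -0.083, and no subunit fell by 1.5-fold (10.5% of all genes tested did). The 6 h and PBS arrays did not overlap for 25 of the 37 genes, all lower, against 34.5% of all genes tested. Complex II had 2 of 3 subunits lower (SDHA -0.33, SDHD -0.38), and complex III 4 of 7 (UQCRC2 -0.27, CYC1 -0.22, UQCRB -0.18, UQCR10 -0.18). CYCS fell by 0.18. In complex IV, 1 of 11 fell at 6 h. It was COX7A2L, with signals of 9659.9, 9651 and 9531 in HAase 6 h cells and 10374, 10505 and 10902 in PBS cells (limma adjusted p = 0.0421). This call was lost under 13 of the alternatives tried. In complex V, ATP5F1B, ATP5F1D, ATP5PF and ATP5MC2 fell, 4 of 15 (26.7%), near the 27.4% of all genes tested. ATP5F1D had signals of 1852, 1797.6 and 1555.5 in HAase 6 h cells and 2462, 2233 and 2006 in PBS cells, a log2 difference of -0.36 ± 0.10 (SE, n = 3 per group, limma adjusted p = 0.0194). Medians at 6 h were -0.33 in complex II, -0.18 in complex III, -0.11 in complex IV and -0.15 in complex V.

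The 6 h count depended on scaling and on single arrays. With every array set to the same median, the median of all genes moved by 0.13, calls over all genes changed to 3138 higher and 2387 lower (2073 higher and 3790 lower as deposited), 2 subunits remained lower (SDHA and SDHD), and the median of the 37 turned to 0.0029. With quantile normalization the count was 23, with trended and robust variance 21, with no filter 5, without PBS replicate 2 or HAase 6 h replicate 3 it was 4, without HAase 6 h replicate 2 it was 5, and without PBS replicate 3 or HAase 6 h replicate 1 it was 6. Relative to the median of all genes, which equal medians cannot change, the median of the 37 subunits lay at -0.049 at 6 h and -0.36 at 24 h. At 6 h it lay at -0.11 with quantile normalization and -0.12 with the mean of probe sets. At 24 h, equal medians gave 3153 higher and 2501 lower calls over all genes (2424 and 3154 as deposited), and 29 of the 37 subunits still fell.

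From 6 h to 24 h of HAase the subunits were lower again. In the direct comparison of the HAase groups 26 of 37 were lower at 24 h and 0 higher, against 13.3% of all genes tested that were lower and 19.7% that were higher. At an unadjusted p under 0.05, 28 were lower and 0 higher. The median was -0.26, while over all genes it was 0.053. Arrays of the HAase 24 h and 6 h groups did not overlap for 31 of the 37, all lower, against 18.4% of all genes tested, and 0 of the 37 were lower by 1.5-fold, against 5.54%. UQCRC2 (-0.55) and CYC1 (-0.47) were lowest. Without HAase 24 h replicate 3, ATP5MF passed as higher. Equal medians changed the calls over all genes to 2136 higher and 2208 lower (2733 and 1836 as deposited), and 28 subunits were then lower. The comparisons share arrays, so their counts are not independent.

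By the 3 tests, 17 genes were lower at 24 h than in both other groups and not past the test at 6 h against PBS. They included 9 of the 11 tested complex IV subunits (COX5A, COX5B, COX6A1, COX6B1, COX6C, COX7A2, COX7B, COX7C and COX8A), SDHC and 7 of complex V. The COX6A1 call between 24 h and 6 h was lost under 14 of the alternatives tried. Another 9 were lower in all 3 comparisons: SDHD, UQCRC2, UQCRB, UQCR10, CYC1, CYCS, ATP5F1B, ATP5PF and ATP5MC2. Most of their 6 h calls were fragile. Of the alternatives tried, 11 lost that of UQCR10, and 10 each those of CYC1 and ATP5F1B. For UQCRB and ATP5PF it was 9 each, for CYCS 6, for ATP5MC2 3, and for SDHD and UQCRC2 1 each. The call between 24 h and 6 h was lost under 9 for UQCRB and 7 for CYCS, and under 1 each for SDHD and UQCR10. SDHA, COX7A2L and ATP5F1D were lower at both times than in PBS, without passing between 6 h and 24 h. UQCRC1, COX4I1, ATP5PD and ATP5ME were lower in the 24 h comparison with PBS alone. A call missed at 6 h is not evidence of no change at 6 h. The patterns were not counted over all genes tested, so these counts do not show whether a pattern is particular to the subunits.

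**Figure D3:**
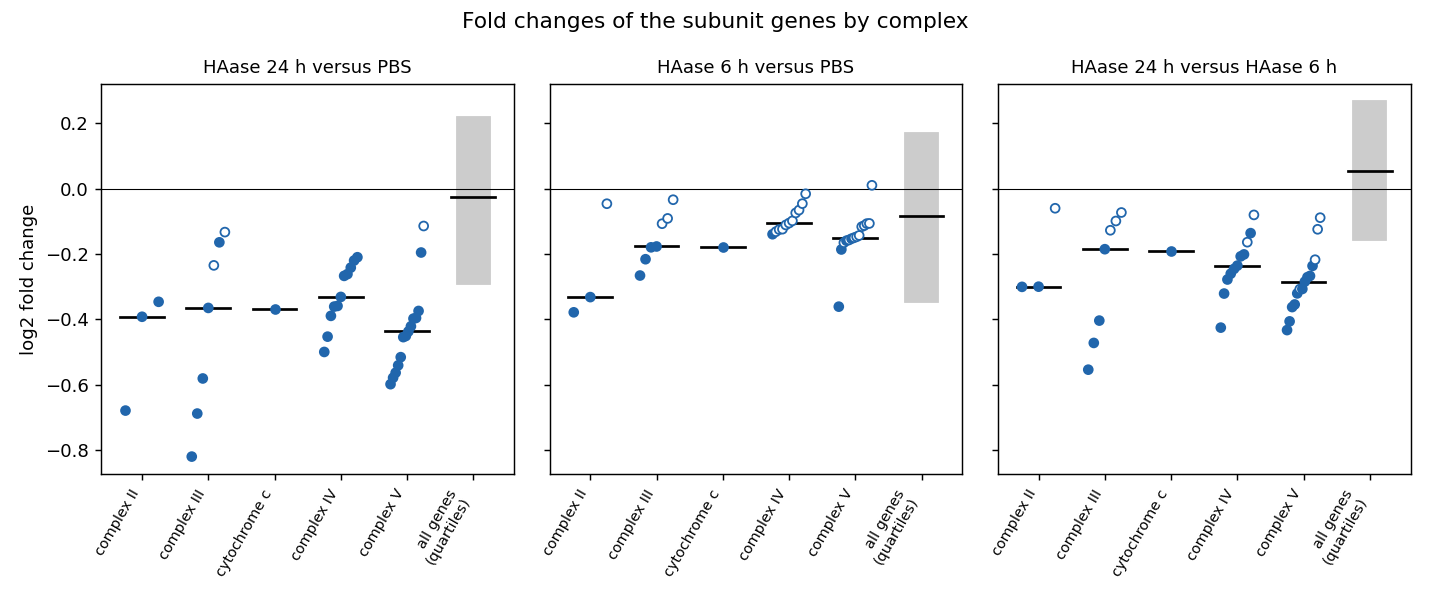
Log2 difference of each tested subunit gene by complex, for HAase 24 h against PBS, HAase 6 h against PBS and HAase 24 h against HAase 6 h; filled points passed the test as lower, open points did not pass, bars are medians and the grey band spans the quartiles of all genes. At 24 h the medians are -0.39, -0.36, -0.33 and -0.44 for complexes II, III, IV and V, and at 6 h -0.33, -0.18, -0.11 and -0.15. ATP5MF is not drawn but counts in the complex V median.

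Promoter sequence was examined because the subunit genes moved together. RefSeq promoters of assembly GRCh38.p14, running from 250 bases before to 50 after each gene's start, were matched by symbol for 32 of the 41 genes. The 5 shown are, for each complex, the gene with the largest 24 h fall among those with nuclear respiratory factor 1 (NRF1) or ETS letters, and UQCRC2, the largest fall, which has neither. Each is written 5′ to 3′ on the plus strand in lower case, and capitals mark matches to NRF1 (GCGCANGCG), ETS (CCGGAAG) or estrogen-related receptor (TCAAGGTCA) letters on either strand. The regions are chr11:112086623-112086922 for SDHD, chr16:21953111-21953410 for UQCRC2, chr22:29767119-29767418 for UQCR10, chr2:97645812-97646111 for COX5B and chr11:118401356-118401655 for ATP5MG.
SDHD: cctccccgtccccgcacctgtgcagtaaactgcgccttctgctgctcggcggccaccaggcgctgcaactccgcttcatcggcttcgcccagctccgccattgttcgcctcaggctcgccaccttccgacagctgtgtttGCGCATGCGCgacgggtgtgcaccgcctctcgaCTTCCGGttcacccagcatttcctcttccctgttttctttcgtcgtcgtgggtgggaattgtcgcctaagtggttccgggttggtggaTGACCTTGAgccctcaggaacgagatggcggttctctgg
UQCRC2: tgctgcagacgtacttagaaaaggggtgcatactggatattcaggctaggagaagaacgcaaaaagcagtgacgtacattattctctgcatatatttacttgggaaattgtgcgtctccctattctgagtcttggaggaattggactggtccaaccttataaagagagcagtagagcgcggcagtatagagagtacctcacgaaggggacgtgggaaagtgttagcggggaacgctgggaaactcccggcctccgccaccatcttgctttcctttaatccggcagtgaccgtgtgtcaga
UQCR10: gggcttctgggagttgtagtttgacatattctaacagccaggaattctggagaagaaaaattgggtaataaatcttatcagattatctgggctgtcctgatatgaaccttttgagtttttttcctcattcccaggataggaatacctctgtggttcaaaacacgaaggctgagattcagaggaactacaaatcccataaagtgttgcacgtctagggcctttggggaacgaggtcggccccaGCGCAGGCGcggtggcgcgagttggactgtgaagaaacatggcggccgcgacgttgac
COX5B: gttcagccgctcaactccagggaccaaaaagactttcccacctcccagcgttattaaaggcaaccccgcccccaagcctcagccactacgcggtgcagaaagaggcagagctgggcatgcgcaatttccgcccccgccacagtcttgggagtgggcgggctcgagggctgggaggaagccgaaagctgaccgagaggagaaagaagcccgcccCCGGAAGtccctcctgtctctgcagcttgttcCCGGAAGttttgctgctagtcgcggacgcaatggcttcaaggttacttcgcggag
ATP5MG: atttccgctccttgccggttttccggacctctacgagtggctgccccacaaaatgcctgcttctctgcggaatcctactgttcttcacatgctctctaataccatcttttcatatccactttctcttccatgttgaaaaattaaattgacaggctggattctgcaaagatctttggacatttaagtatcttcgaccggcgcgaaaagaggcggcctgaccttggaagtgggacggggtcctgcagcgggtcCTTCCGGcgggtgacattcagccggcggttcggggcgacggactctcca

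SDHD held 1 ETS match, 1 estrogen-related receptor match and 2 overlapping NRF1 matches, 1 on each strand, and UQCR10 held 1 NRF1 match, COX5B 2 ETS matches and ATP5MG 1 ETS match. Over the 32 promoters, NRF1 letters were in 12 (37.5%, against 8.05% of 27305 promoters in the table) and ETS letters in 14 (43.8%, against 10.7%). Estrogen-related receptor letters were in 1 (3.13%, against 0.359%), and YY1 letters (AAGATGGCG) in 3, ATP5PF, SDHB and UQCRC1 (9.38%, against 1.85%). At least 1 of NRF1 and ETS was found in 21 of 32 (65.6%, against 17.1%). The letters were found in subunits of large and of small response. At 24 h the median log2 difference was -0.39 for the 18 tested genes with NRF1 or ETS letters, of which 16 fell, and -0.39 for the 11 with neither, of which 10 fell. A match describes letters in this window and not binding.

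Of the 37 genes, 20 also had other tested probe sets, 40 in all, which may overlap the brightest one in sequence; probe positions were not used here. At 24 h 32 of these 40 fell and 0 rose in a fit over all 26605 single-symbol probe sets, of which 18.8% fell and 14.5% rose. Of the 40, 39 had the same sign as the brightest probe set of their gene. ATP5PD was the exception, with a second probe set at 0.00094. For 20 probe sets of 17 genes the brightest probe set was at least 10 times as bright. The median 24 h difference was -0.70 for these dimmer probe sets and -0.37 for their brightest counterparts, and 16 of the 20 lay lower. Where the brightest was under 10 times as bright, the medians were -0.41 and -0.39. COX7B had a second probe set that averaged 298 in HAase 24 h cells, 535 in HAase 6 h cells and 888 in PBS cells. Its 24 h log2 difference was -1.53 (adjusted p = 2.75e-05), against -0.50 for the brighter one. ATP5MC3 had one at -1.38 (adjusted p = 0.000105), with averages of 292 in HAase 24 h cells and 777 in PBS cells. The second probe set of ATP5F1E fell by 0.79 (adjusted p = 0.00623), while the brighter one did not pass the test. At 6 h all 20 of the dimmer probe sets lay lower than their brighter counterparts, with medians of -0.39 and -0.12. The cause of the difference between probe sets was not tested. Among the probe sets used for the 38 genes, 7 have the suffix _x_at (SDHA, SDHC, COX4I1, COX7C, ATP5F1C, ATP5ME and ATP5MG), which marks probes that may bind other transcripts.

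**Figure D4:**
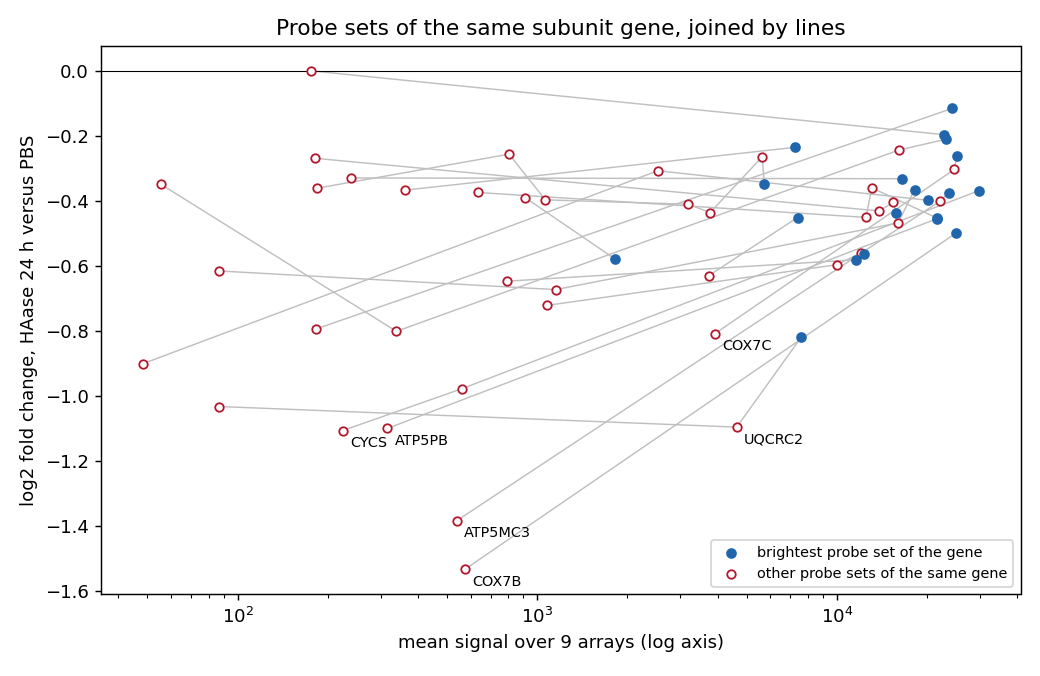
Log2 difference of HAase 24 h from PBS for the brightest probe set (filled blue) and the other tested probe sets (open red) of the 20 subunit genes with several; lines join probe sets of a gene. Of the 40 other probe sets, 32 fell, and the lowest is that of COX7B at -1.53.

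Related genes were compared in the same fit, in which 22.8% of all genes tested fell and 17.5% rose at 24 h. Complex I, the entry point for NADH, had 30 of 33 tested subunits lower and 0 higher at 24 h (median -0.42), with NDUFA3 at -0.94, NDUFA7 at -0.93, NDUFS7 at -0.90 and NDUFB1 at -0.76. At 6 h 13 of 33 were lower, and 1 of 33 under equal array medians. The citric acid cycle had 8 of 11 lower at 24 h (median -0.46), among them IDH3G at -0.75 and SUCLA2 at -0.68, and 3 of 11 at 6 h, or 0 under equal array medians. The 6 h share of 27.3% was near that of all genes tested (27.4%). The subunits encoded in mitochondrial DNA gave 0 calls in limma at either time for the 7 genes tested, also 0 at an unadjusted p under 0.05, with 24 h differences of -0.12 to 0.098. Under quantile normalization 1 of them was lower at 24 h. MT-CO1, MT-CO2, MT-ATP6, MT-ND2 and MT-ND4 were bright, with signals of 22002 to 45408. Whether probe sets this bright understate a change was not tested. The 24 h arrays also spread widely for MT-CO1, at 42842, 45408 and 34436.

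Assembly factors of complexes II to V gave 16 of 38 lower and 2 higher at 24 h (median -0.13). COX14 and COX15, which help to build complex IV, fell by 0.63 and 0.62, SDHAF4, a complex II factor, by 0.60, and ATPAF2, a complex V factor, by 0.60. TTC19 (0.22) and TMEM70 (0.15) were the 2 that rose, and neither passed under quantile normalization. At 6 h 14 fell and 2 rose (9 and 5 under equal array medians), led by LYRM7, a complex III factor, at -0.83, with COX15 at -0.76. Paralogues and accessory subunits gave 6 of 10 lower at 24 h, with HIGD2A at -0.73 and COX7B2 at -0.64. At 6 h 4 fell and 1 rose (2 and 1 under equal array medians). The riser was COX6A2, the muscle isoform of a complex IV subunit, with signals of 59.8, 106 and 68.7 in HAase 6 h cells and 34.0, 23.4 and 56.5 in PBS cells; the PBS arrays were not above the control level, and it was at least 1.42-fold higher (limma adjusted p = 0.0381).

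Regulators of mitochondrial biogenesis moved both ways, with 6 of 21 lower and 7 higher at 24 h. PPARGC1A, a coactivator that induces respiratory genes, had signals of 347, 374 and 309 in HAase 24 h cells, 326, 303 and 375 in HAase 6 h cells, and 1706, 1981 and 2024 in PBS cells. The HAase groups overlapped each other and lay far below PBS. It fell 5.34-fold at 24 h (limma adjusted p = 1.33e-06) and 5.48-fold at 6 h (adjusted p = 1.77e-06). PPARGC1B, its relative, fell by 1.04 on the log2 scale at 24 h and 1.05 at 6 h, and NRIP1, a corepressor, by 0.68 at 24 h. TFB1M, a mitochondrial ribosomal RNA methyltransferase, rose by 0.58 at 24 h. At 6 h TWNK, the mitochondrial helicase, rose by 0.64 and PPRC1 by 0.63, within 4 lower and 5 higher of 21 (2 and 7 under equal array medians). These 6 h shares were 19.0% lower and 23.8% higher, against 27.4% and 15.0% of all genes tested.

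The uncoupling and carrier list gave 3 of 4 lower at 24 h. UCP2, an inner membrane carrier, had signals of 674, 705 and 718 in HAase 24 h cells, 1379.9, 1317 and 1384 in HAase 6 h cells, and 2656, 2685 and 2629 in PBS cells. It fell 3.74-fold at 24 h (limma adjusted p = 7.85e-08), without overlap between the 3 groups. SLC25A4, an ADP/ATP carrier, fell by 0.80. Import and outer membrane genes gave 4 of 14 lower and 3 higher at 24 h, with TOMM22 at -0.34 and VDAC1 at 0.22. As shares these were 28.6% lower and 21.4% higher, near the 22.8% and 17.5% of all genes tested. Ubiquinone synthesis and other enzymes that feed ubiquinone gave 11 of 20 lower and 2 higher. ETFDH and ETFB, which bring in electrons from fatty acid oxidation, fell by 1.25 and 1.01, and COQ9 by 0.82. SQOR, which oxidises sulfide, rose by 2.94, a 7.66-fold increase (limma adjusted p = 9.29e-08).

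**Figure D5:**
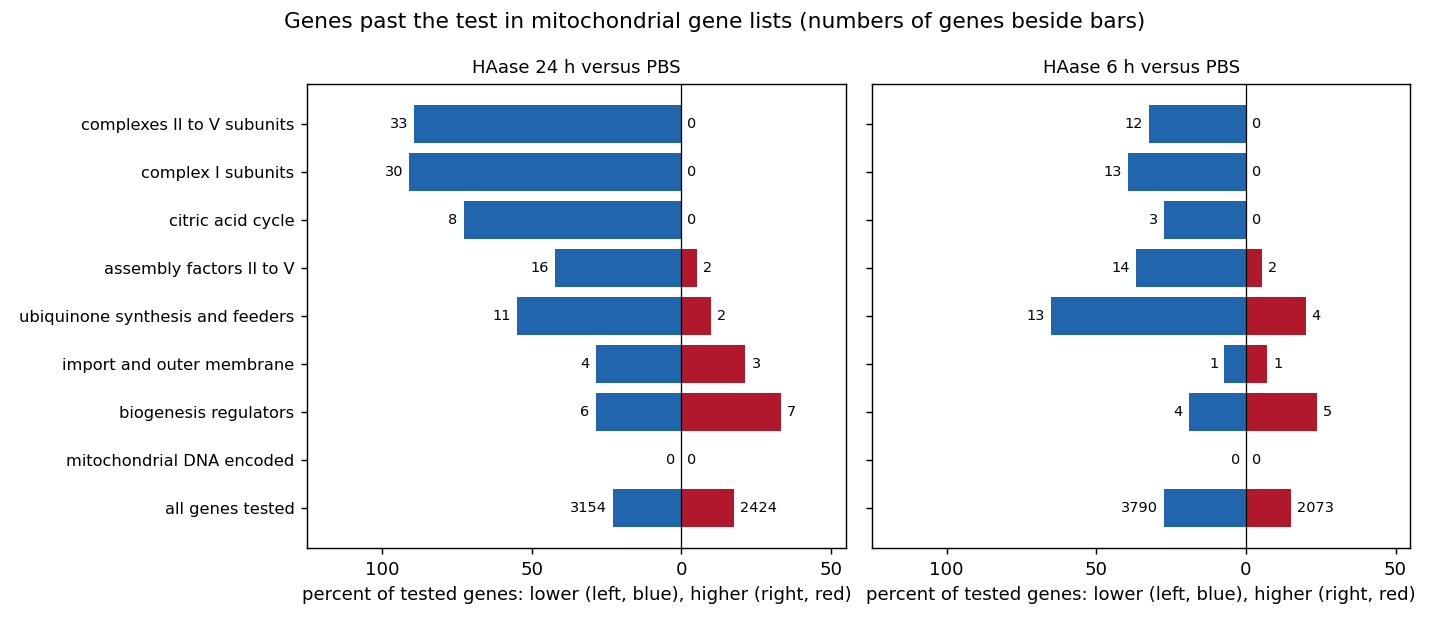
Percentage of tested genes that passed the test as lower or higher in the subunit genes and related gene lists, for HAase 24 h against PBS and HAase 6 h against PBS. At 24 h, 33 of 37 subunit genes and 30 of 33 complex I genes are lower, and of the 7 genes encoded in mitochondrial DNA 0 pass the test.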

How the data were processed

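The authors deposited 1 linear signal intensity per probe set, which they took from CHP files according to the series' design text. How the probes were summarised is not given in the sources used here. Per array, the 2%-trimmed mean was 500.07 to 500.08. Probe sets were named from GEO's platform annotation. Of 54675 probe sets, those without a symbol and 1801 with several symbols were left out, which left 41097. The probe set with the highest mean log2(signal + 16) stood for a gene. Genes below the 30th percentile of that mean, near a signal of 32.2, were not tested, which left 13842. limma 3.58.1 (lmFit and eBayes, R 4.3.3) fitted 3 group means over the 9 arrays, with Benjamini-Hochberg adjustment and a threshold of 0.05. A permutation test of 3 against 3 arrays cannot go below 0.1, so none was used. The method was tested on simulated data over 13842 genes. Of 100 simulated log2 differences of -0.4 it recovered 32, and of 100 of -1 it recovered 72, with 9 false calls. The changed genes were drawn at random from all genes tested, with their own spread. Far fewer genes were changed than were called in the data. These recoveries therefore do not give the share of subunit changes that was missed. Replicate numbers did not pair samples, with correlations of deviations of -0.049 to 0.037. Other probe sets were fitted over all 26605 single-symbol probe sets that passed the filter.

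Members and gene lists were chosen with earlier results of these data known. Full values are given for the member with the largest fall in each complex and comparison, for any rise and for isoform sets, and up to 4 genes per related list were named by size among those past the test. The figures of precision rest on the number of arrays. Promoters came from RefSeq (GRCh38.p14), and no chromosome 8 promoter was printed. Alternatives were quantile normalization, equal array medians, pseudocounts of 1 and 64, no filter or a 50th percentile filter, the mean of probe sets, trended and robust variance, 2-group fits, a replicate block and leaving out each array.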

Additional observations from a re-analysis of the deposited data

Results flagged for a closer look

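In 26 of the 37 subunit genes HAase 24 h samples differed from HAase 6 h samples (limma, adjusted p from 0.000321 for UQCRC2 to 0.0475 for COX6A1), all lower at 24 h, against 13.3% of all genes tested that were lower. With no 6 h PBS group, this compares samples and not effects of HAase at each time. The COX6A1 call was lost under 14 of the alternatives tried, the UQCRB call under 9, the CYCS call under 7 and the COX6C call under 6. The log2 differences were -0.30 for SDHC and -0.30 for SDHD in complex II. In complex III they were -0.55 for UQCRC2, -0.19 for UQCRB, -0.40 for UQCR10 and -0.47 for CYC1, and for cytochrome c (CYCS) -0.19. In complex IV they were -0.21 for COX5A, -0.32 for COX5B, -0.14 for COX6A1, -0.26 for COX6B1, -0.20 for COX6C, -0.28 for COX7A2, -0.42 for COX7B, -0.25 for COX7C and -0.24 for COX8A. In the F1 head and peripheral stalk of complex V they were -0.27 for ATP5F1A, -0.36 for ATP5F1B, -0.32 for ATP5F1C, -0.31 for ATP5PB, -0.24 for ATP5PF and -0.28 for ATP5PO. In its membrane part they were -0.43 for ATP5MC1, -0.35 for ATP5MC2, -0.27 for ATP5MC3 and -0.41 for ATP5MG.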

How the results depend on the processing

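The fall at 24 h kept its direction for the subunits as a group under each alternative tried, with 29 to 35 of 36 to 38 lower (30 to 33 when 1 array was left out) against 33; of the 33, 28 to 33 were called again. UQCRC1, COX4I1 and ATP5PD were the calls most often lost. The precision is limited by the number of arrays, by signals at the control level (COX7A1, ATP5MF) and by probe sets that may bind other transcripts; SDHB, UQCRFS1 and UQCRH are not analysed here. Values that moved follow, and the cause was not tested unless given.

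At 24 h against PBS, equal array medians, which shift all genes alike, gave medians of -0.31 for all 37 subunits, -0.31 for complex II, -0.29 for III, -0.25 for IV and -0.36 for V, and ATP5MF turned to 0.033. Quantile normalization gave -0.41 for complex II. The mean of probe sets gave -0.53 for complex III and turned ATP5MC2 to 0.049; its second probe set was above the control level on 1 of 9 arrays. Without 1 array the complex II median ran from -0.41 to -0.37, and ATP5MF from -0.23 to 0.27, with values above 0 of 0.022, 0.029 and 0.27.

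At 6 h against PBS, the number lower was 23 with quantile normalization, 2 with equal medians, 5 with no filter, 21 with trended and robust variance and 4 to 11 with 1 array left out. Quantile medians were -0.17 for all subunits, -0.37 for complex II, -0.23 for III, -0.16 for IV and -0.20 for V. Equal-median values were 0.0029 for all subunits, -0.20 for complex II, -0.042 for III, 0.029 for IV and -0.016 for V, with 3138 genes higher and 2387 lower. Equal medians add the same 0.13 to every gene at 6 h, so genes with a smaller decrease turn positive by construction: SDHC 0.088, UQCRC1 0.043, UQCRQ 0.10, UQCR11 0.027, COX4I1 0.089, COX5A 0.011, COX5B 0.0029, COX6A1 0.029, COX6B1 0.036, COX6C 0.069, COX7A2 0.023, COX7B 0.060, COX7C 0.12, COX8A 0.0094, ATP5F1C 0.018, ATP5PD 0.028, ATP5PO 0.022 and ATP5MC3 0.028. The mean of probe sets gave -0.19 for all subunits, -0.24 for complex III, -0.20 for V and -0.00126 for ATP5F1E, which was -0.00392 with quantile normalization. Without 1 array the complex III median ran from -0.20 to -0.14, ATP5F1E from -0.045 to 0.059 and COX7C from -0.043 to 0.019.

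At 24 h against 6 h, equal medians gave -0.32 for all subunits, -0.24 for complex III, -0.29 for IV and -0.34 for V. The mean of probe sets gave 1808 genes higher, -0.11 for complex II, and values above 0 for COX6A1 (0.010), ATP5PD (0.098) and ATP5MC2 (0.11). Without 1 array the number of subunits higher was 0 to 1 and the number lower 21 to 25.

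With the replicate number as a block, 31 subunits were lower at 24 h against PBS, 6 at 6 h against PBS and 23 at 24 h against 6 h. The labels give no shared source for a number, and same-numbered arrays did not deviate together (correlations of -0.049 to 0.037).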
